A study of Rattus norvegicus with 4 samples.

Results

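Immediate early genes were described in rat soleus, 10 in number: Fos, Fosb, Jun, Junb, Egr1, Ier2, Zfp36, Dusp1, Atf3 and Myc. They were chosen by name, as every probe set annotated to exactly 1 of these symbols, which gave 10 genes and 14 probe sets of the 14217 genes on the array. Of the 10 genes, 9 had signal above the floor used here on at least 1 array, and Fosb had none. The muscle came from male Wistar rats that were 10 weeks old at the start, and the age field of the samples gives 14 weeks. The genistein group ate an AIN-93G diet with 0.05% genistein (0.5 g per kg), a soy isoflavone that binds oestrogen receptors, and the control group a modified AIN-93G diet with corn oil in place of soybean oil. The labels mention that oil change only for the control diet. Both diets were fed for 24 days. On day 14 a piece of the left sciatic nerve was removed, the right leg of the same rats had sham surgery, and muscle was taken 10 days later.

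The 4 groups were genistein denervated, genistein sham, control denervated and control sham muscle, with the RNA of 8 rats combined per group and read on 1 array. No value below therefore has a replicate, an error or a test, and every comparison is a statement about these 4 arrays. The 2 legs of a diet group came from the same rats. The median signal of a probe set was 121 to 133 units on the 4 arrays, and 58.5% to 60.8% of probe sets exceeded a floor of 78.9 units, the 40th percentile of all signals. Lower signals were raised to that floor. A gene was taken as measured if either array compared exceeded it, and was called at a ratio of 2-fold. Groups follow the sample titles, since the treatment field of 2 samples contradicts them. The summed signal of 7 genes that mark nerve loss was 48403 units in genistein denervated against 6828 in genistein sham muscle, and 55270 in control denervated against 8518 in control sham muscle, which goes with the titles. No such check was made of the diet, so the genistein and control groups rest on the labels alone. All 7 skeletal muscle markers were above the floor.

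Immediate early genes are transcribed within minutes of a stimulus such as a growth factor, stretch, nerve activity or stress, without the need for new protein, and their mRNAs are short-lived. Kinases of the MAP kinase pathways and calcium signals reach them through the transcription factors SRF and CREB, and their products either switch on later genes or close the response down. In skeletal muscle they are known to respond to contraction and injury. Within the group, Fos, Fosb, Jun and Junb are subunits of the AP-1 factor. Egr1 is a zinc finger transcription factor, Atf3 a stress-induced factor of the ATF/CREB family, and Myc a factor that drives growth genes. Ier2 is a nuclear protein of less defined role. Zfp36, tristetraprolin, speeds the decay of mRNAs with AU-rich elements, and Dusp1 is a phosphatase that switches MAP kinases off.

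The stretch before the start site is shown for 4 members that differed in how they stood on the arrays: Dusp1, lower in denervated muscle; Junb, higher in denervated muscle; Ier2, higher on genistein; and Zfp36, higher in denervated muscle by less. RefSeq's GRCr8 table held a promoter for 6 of the 10 members (also Egr1 and Fosb). Each line gives the 250 bases before the start, 5′ to 3′. Capitals mark matches on either strand to the cyclic AMP response element TGACGTCA (CREB's site), the AP-1 site TGANTCA, the EGR site GCGNGGGCG and the CArG box (SRF's site).
Dusp1 (GRCr8, + strand, chr10:17184603-17184852): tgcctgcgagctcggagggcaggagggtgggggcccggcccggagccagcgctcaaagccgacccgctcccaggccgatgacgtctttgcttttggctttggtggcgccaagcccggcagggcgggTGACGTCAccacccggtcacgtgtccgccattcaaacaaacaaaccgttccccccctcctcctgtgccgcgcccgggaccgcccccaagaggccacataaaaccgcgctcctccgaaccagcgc
Junb (GRCr8, + strand, chr19:40080876-40081125): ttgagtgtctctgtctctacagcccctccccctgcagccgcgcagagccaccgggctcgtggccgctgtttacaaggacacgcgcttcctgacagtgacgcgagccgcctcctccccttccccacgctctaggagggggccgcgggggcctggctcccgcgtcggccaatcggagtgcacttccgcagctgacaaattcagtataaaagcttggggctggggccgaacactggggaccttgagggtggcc
Ier2 (GRCr8, + strand, chr19:40399123-40399372): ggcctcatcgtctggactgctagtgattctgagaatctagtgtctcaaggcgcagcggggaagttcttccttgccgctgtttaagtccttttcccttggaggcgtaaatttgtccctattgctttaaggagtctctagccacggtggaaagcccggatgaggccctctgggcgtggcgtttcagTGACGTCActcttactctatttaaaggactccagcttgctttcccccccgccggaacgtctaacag
Zfp36 (GRCr8, - strand, chr1:92799109-92799358): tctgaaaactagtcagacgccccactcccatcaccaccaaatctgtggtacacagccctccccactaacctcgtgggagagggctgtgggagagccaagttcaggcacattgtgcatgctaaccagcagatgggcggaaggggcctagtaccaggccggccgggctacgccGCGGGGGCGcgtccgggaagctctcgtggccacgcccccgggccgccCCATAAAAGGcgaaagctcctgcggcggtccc
Dusp1 and Ier2 each held 1 full cyclic AMP response element, a motif found in the same window of 1.59% of 33469 rat promoters. Zfp36 held 1 EGR site, against 4.29% of promoters, and 1 CArG box, against 1.5%. Egr1, not printed, held 2 CArG boxes. The 250 bases of Junb held none of the 4 motifs, and no member with a promoter here held the AP-1 site, which 6.34% of promoters held. No 2 of these marked motifs overlap. A match describes the letters of the window and is not a measured binding site. The part of these motifs in the array values was not tested.

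The first comparison asks how the soleus without its nerve differed from the sham muscle of the same rats. Junb and Myc were at least 2-fold higher in denervated muscle on both diets and Dusp1 at least 2-fold lower, while Fos, Egr1, Ier2, Zfp36 and Atf3 stayed within 2-fold. On the genistein diet 2 of 9 measured members were at least 2-fold higher, against 4.96% of all genes, and 1 was at least 2-fold lower, against 6.57%. On the control diet the counts were again 2 and 1 of 9, against 5.04% and 7.63% of all genes. The same 2 genes were higher on both diets, as were 3.35% of all genes, and Dusp1 was lower on both, as were 4.6%. The median log2 ratio of the 9 members was 0.20 on genistein and 0.21 on the control diet, beside 0.02 and -0.00 over all genes. Some calls ended under an alternative: Junb on the control diet (0.76) and Myc on genistein (0.95) with the floor at the 60th percentile, which turns these ratios into bounds, and Dusp1 on genistein (-0.93) under hybridisation control scaling. Other calls appeared under an alternative. Jun passed 2-fold under quantile normalization (1.09 on genistein, 1.08 on the control diet) and under hybridisation control scaling (1.22 and 1.16). Under hybridisation control scaling so did Fos on genistein (1.22) and Zfp36 on the control diet (1.01). On genistein 7 of 9 ratios were above 0, against 51.7% of all genes, and on the control diet 5 of 9, against 49.8%.

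**Figure D1:**
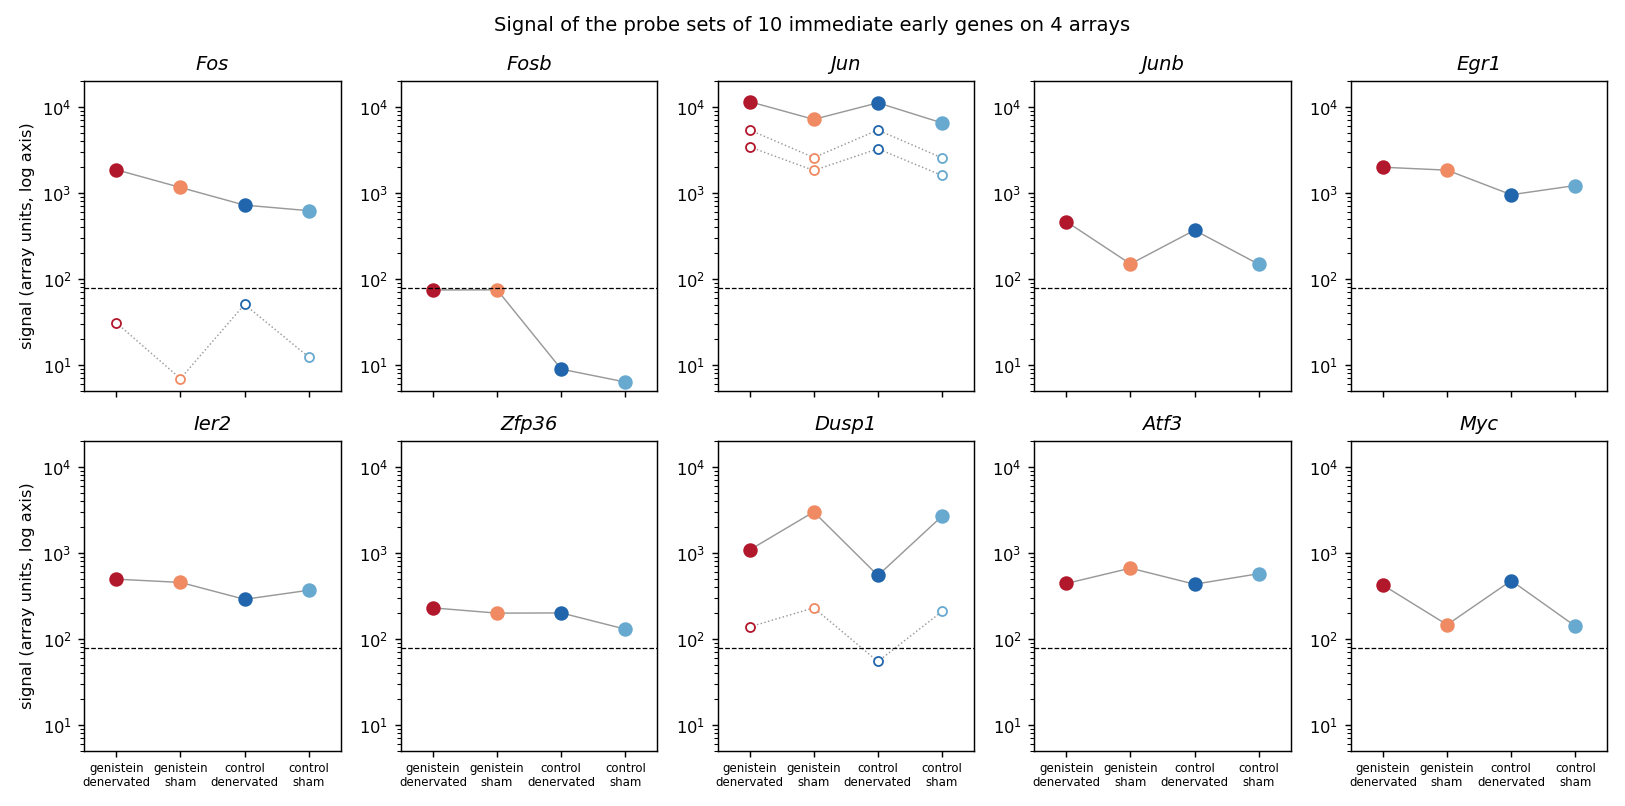
Signal of every probe set of the 10 genes on the 4 arrays (vertical log axis in array units; 1 point per array, in the order genistein denervated, genistein sham, control denervated, control sham). Filled points are the probe set that represents the gene, open points its other probe sets, grey lines only join the points of a probe set, and the dashed line is the floor of 78.9 units; Junb and Myc stand higher and Dusp1 lower on both denervated arrays.

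Among the AP-1 subunits, Junb carried the larger difference. Junb was at 464 units in genistein denervated against 149 in genistein sham muscle, and at 368 in control denervated against 148 in control sham muscle. Both denervated arrays lay above both sham arrays, by 3.11-fold on genistein and 2.49-fold on the control diet. Only 1.58% of genes had a higher denervation ratio than Junb on genistein and 2.82% on the control diet. Jun, its more strongly activating relative, was read by 3 probe sets that all placed the denervated arrays above the sham arrays. The representative one read 11499 units in genistein denervated against 7165 in genistein sham muscle, and 11159 in control denervated against 6512 in control sham muscle. Its folds were 1.60 and 1.71 on genistein and control diets, and the other probe sets gave 2.09 and 1.88 on genistein and 2.11 and 2.04 on the control diet. Jun thus stood on either side of 2-fold depending on the probe set and on the scaling.

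Fos, the partner of Jun in AP-1, was at 1857 units in genistein denervated against 1156 in genistein sham muscle, and at 720 in control denervated against 621 in control sham muscle. Its denervation ratio was 1.61-fold on genistein and 1.16-fold on the control diet, and 1 denervated array (control) lay below 1 sham array (genistein), so the operations overlapped. The other probe set annotated to Fos stayed under the floor on all 4 arrays (30.8 and 6.9 units on the genistein denervated and sham arrays, 50.4 and 12.3 on the control ones) and gives no ratio. Fosb, a close relative of Fos, was also under the floor throughout, at 74.1 units in genistein denervated and 74.5 in genistein sham muscle, and at 8.9 in control denervated and 6.3 in control sham muscle.

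Myc had the largest denervation ratio of the members on the control diet. It was at 421 units in genistein denervated against 146 in genistein sham muscle, and at 475 in control denervated against 140.0 in control sham muscle. The 4 values fall into a high denervated and a low sham pair with no overlap, 2.89-fold apart on genistein and 3.39-fold on the control diet. On the control diet 1.32% of genes had a higher ratio. Atf3 went the other way by a small amount, with 440 units in genistein denervated against 663 in genistein sham muscle and 431 in control denervated against 571 in control sham muscle. Its log2 ratios of -0.59 and -0.41 compare with an SD of 0.36 and 0.35 among probe sets of the same gene on genistein and control diets. That SD, from 2310 genes with several probe sets above the floor, is the only guide to measurement scatter here, and it leaves out differences between pools. Under hybridisation control scaling the Atf3 ratios were only -0.05 on genistein and -0.03 on the control diet.

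Dusp1, the MAP kinase phosphatase, was the one member at least 2-fold lower without the nerve. It was at 1080 units in genistein denervated against 2992 in genistein sham muscle, and at 545 in control denervated against 2671 in control sham muscle. Both denervated arrays lay below both sham arrays, 2.77-fold lower on genistein and 4.90-fold lower on the control diet, and 0.697% of genes had a lower ratio on the control diet. Its other probe set read 137 against 229 units on genistein and 54.4 against 208 on the control diet, a difference of 1.67-fold and, since the control denervated signal is under the floor, at least 2.63-fold. The mRNA decay factor Zfp36 was at 229 units in genistein denervated against 199 in genistein sham muscle, and at 199.8 in control denervated against 129 in control sham muscle. These are ratios of 1.15-fold and 1.55-fold, the first well inside the probe set SD.

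Egr1 and Ier2 stayed close to their sham levels in opposite directions. Egr1 was at 1988 units in genistein denervated against 1837 in genistein sham muscle, and at 951 in control denervated against 1218 in control sham muscle. Ier2 was at 493 units in genistein denervated against 452 in genistein sham muscle, and at 288 in control denervated against 367 in control sham muscle. Their log2 ratios were 0.11 and 0.13 on genistein and -0.36 and -0.35 on the control diet, all within or near the probe set SD. For both genes the order from high to low was genistein denervated, genistein sham, control sham, control denervated, so the diet and not the operation separated the arrays.

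**Figure D2:**
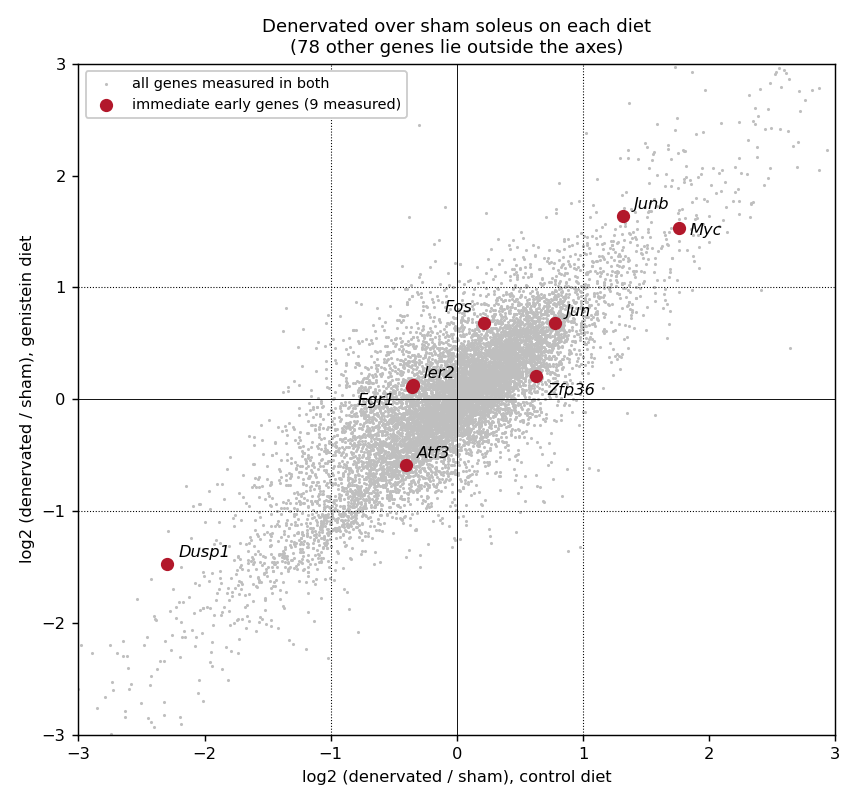
Log2 ratio of denervated over sham signal on the control diet (horizontal) and on the genistein diet (vertical); grey points are all genes measured in both comparisons, red points the 9 measured members, and dotted lines mark 2-fold. Junb and Myc lie beyond 2-fold at the upper right and Dusp1 at the lower left, with the other 6 between the dotted lines; 78 other genes lie outside the axes.

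Without regard to size, Jun, Junb, Zfp36 and Myc had both denervated arrays above both sham arrays, 4 of 9 members against 34.1% of all genes. Dusp1 and Atf3 had both below, 2 of 9 against 31.3%, though under hybridisation control scaling Dusp1 alone did. Both shares are of the order seen over all genes, so the counts are no result about the members. Markers of other cells differed between the operations as well. In denervated muscle the 8 endothelial markers summed to 3015 units against 4055 in genistein sham, and to 2020 (control denervated) against 4270 (control sham). The 9 fibroblast markers summed to 46141 against 62987 units on genistein and to 29024 against 63171 on the control diet. These sums were lower on the denervated side, as Dusp1 was, though 2 of 8 endothelial and 2 of 9 fibroblast ratios were above 0 on genistein. The skeletal muscle, satellite cell, smooth muscle, adipocyte and erythrocyte sums were also lower on both diets. For adipocyte markers on genistein the sum did not follow most genes. There 4 of 6 measured ratios were above 0, 3 were at least 2-fold higher and 1 lower, and the median log2 ratio was 1.01. On the control diet 1 of 5 adipocyte ratios was above 0. Of the smooth muscle ratios, 2 of 5 were above 0 on genistein. The macrophage and leukocyte sum was lower on the control diet only, and the Schwann cell sum on neither. In a whole-muscle pool, fewer cells of a type and less RNA per cell cannot be told apart, and the part of these cells in the Dusp1 values was not tested. The ratio of 3′ to 5′ actin signal, a sign of RNA integrity, was 2.76 in genistein denervated against 2.32 in genistein sham muscle. It was 3.79 in control denervated against 2.08 in control sham muscle. The same ratio for Gapdh went the other way, at 1.13 against 1.20 on genistein and 1.14 against 1.24 on the control diet. The part of RNA integrity in the denervation ratios was not tested either.

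The second comparison sets the genistein diet against the control diet, first in sham muscle. Fos, Zfp36 and Egr1 had the largest ratios there and no member reached 2-fold (0 of 9, against 0.61% of all genes, 0.324% higher and 0.287% lower). Fos was at 1156 units in genistein sham against 621 in control sham muscle, 1.86-fold, and 0.545% of genes had a higher ratio. Zfp36 was at 199 units in genistein sham against 129 in control sham muscle, 1.54-fold, and Egr1 at 1837 against 1218 units, 1.51-fold. These 3 log2 ratios of 0.90, 0.62 and 0.59 were over the probe set SD of 0.26, and Ier2 at 0.30 was near it. The other 5 ratios lay between 0.01 for Junb and 0.21 for Atf3. All 9 were thus above 0, as were 50.5% of all genes, but Junb turned below 0 under median scaling and quantile normalization. The median of the 9 was 0.21, beside 0.00 over all genes.

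In denervated muscle the diet ratio was larger than in sham muscle for Fos, Egr1, Ier2, Dusp1 and Junb. Fos was at 1857 units in genistein denervated against 720 in control denervated muscle, 2.58-fold, and 12 of 10479 genes had a higher ratio. Egr1 was at 1988 units in genistein denervated against 951 in control denervated muscle, 2.09-fold, with 0.754% of genes higher. These 2 of 9 members were at least 2-fold higher, against 1.02% of all genes, and 0 were at least 2-fold lower, against 0.124%. Dusp1, at 1080 units in genistein denervated against 545 in control denervated muscle, fell just short at 1.98-fold, and its other probe set gave at least 1.74-fold. Ier2 was at 493 against 288 units in the same pools, 1.72-fold. Junb was 1.26-fold and Zfp36 1.15-fold higher on genistein, while Jun (1.03-fold), Atf3 (1.02-fold) and Myc (0.887-fold) read nearly alike in both pools. In all 8 of 9 members were above 0, as were 50% of all genes, and the median was 0.33 beside 0.00. The call of Egr1 ended under median scaling (0.93) and that of Fos with the mean of its probe sets (0.68). Jun under median scaling and Atf3 under median scaling and quantile normalization turned below 0.

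**Figure D3:**
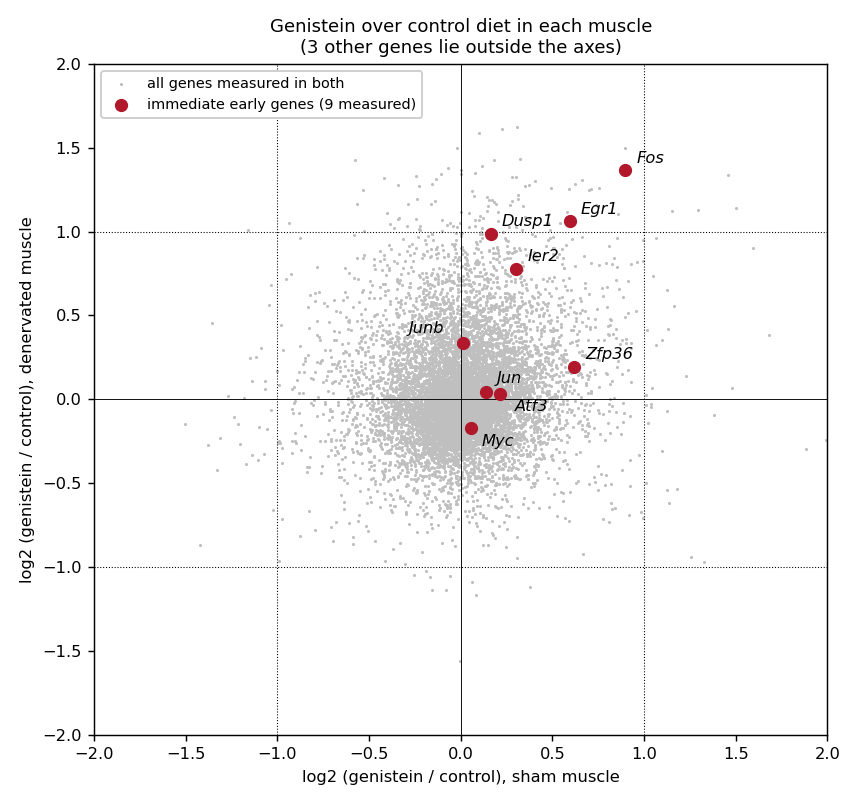
Log2 ratio of genistein over control diet in sham muscle (horizontal) and in denervated muscle (vertical); grey points are all genes measured in both comparisons, red points the 9 measured members, and dotted lines mark 2-fold. Fos stands farthest to the upper right with Egr1 below it, Dusp1 and Ier2 are raised on the vertical axis, and Jun, Atf3 and Myc lie near the centre; 3 other genes lie outside the axes.

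For Fos, Egr1 and Ier2 both genistein arrays lay above both control arrays, 3 of 9 members against 9.15% of all genes, and these 3 kept that order under median, quantile and hybridisation control scaling. The floors could not change it, since all their signals lie above them. The denervated pools differed in the actin 3′ to 5′ ratio, 2.76 on genistein against 3.79 on the control diet. Their Gapdh 3′ to 5′ ratios were nearly alike, at 1.13 and 1.14. The share of probe sets above the floor was 60.1% on genistein against 58.5% on the control diet. The part of RNA quality in the diet ratios was not tested. The same pools differed in markers of other cells. In denervated muscle the 10 macrophage and leukocyte markers summed to 11885 units on genistein against 7523 on the control diet, with 9 of 9 measured ratios above 0 and 2 past 2-fold. Endothelial markers summed to 3015 against 2020 units (7 of 8 above 0) and fibroblast markers to 46141 against 29024 units (8 of 9 above 0). Among adipocyte markers 5 of 6 were above 0, with 3 past 2-fold, and Lep was under the floor on all arrays. By contrast 0 of 7 skeletal muscle markers were above 0, in denervated and in sham muscle alike. In sham muscle those sums were closer, at 11074 (genistein) against 10917 (control) units for macrophage and leukocyte, 4055 against 4270 for endothelial and 62987 against 63171 for fibroblast markers. The sum of the 3 erythrocyte markers went the other way. It was 7823 units in genistein sham against 15580 in control sham muscle, with 1 of 3 ratios above 0. In denervated muscle it was 6603 units on genistein against 10454 on the control diet, with 0 of 3 above 0. The part of such cells in the members' diet ratios was not tested.

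The difference of the 2 denervation ratios, genistein minus control, sets the operation side by side on the diets. It was 0.82 log2 units for Dusp1, where the sham signal exceeded the denervated one by less on genistein, against an SD of 0.34 among probe sets, and its other probe set, with the control denervated signal under the floor, gave at least 0.66. Ier2 (0.48), Egr1 (0.47), Fos (0.47) and Junb (0.32) were also above 0, and Zfp36 (-0.43), Myc (-0.23), Atf3 (-0.19) and Jun (-0.09) below. Zfp36 turned above 0 (0.07) with the floor at the 60th percentile. Jun did so under quantile normalization (0.01) and hybridisation control scaling (0.06). No member passed 2-fold (0 of 9, against 2.59% of all genes, 1.88% higher and 0.708% lower), and 5 of 9 were above 0, against 49.5% of all genes. The value uses the same arrays as the ratios above and adds no independent reading.

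Relatives of the members were then read from 9 lists. Their counts stand beside array-wide shares in denervated muscle of 4.96% of genes at least 2-fold higher and 6.57% lower on genistein, and of 5.04% and 7.63% on the control diet. No count below is called particular to its list. Of 12 other AP-1 and ATF factors with signal, none passed 2-fold upward in denervated muscle on either diet, and 1 on genistein and 2 on the control diet were at least 2-fold lower. Jund, the AP-1 subunit usually present without a stimulus, was at 1644 units in genistein denervated against 3616 in genistein sham muscle, and at 1598 against 4238 on the control diet (log2 ratios -1.14 and -1.41). It stood opposite to Junb and Jun. Atf5, a stress-related relative of Atf4, had log2 ratios of -0.78 and -1.16 on genistein and control diets.

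Of the other early response transcription factors, 3 of 22 on genistein and 3 of 21 on the control diet passed 2-fold upward in denervated muscle, and 1 was lower on each. Nr4a1, an orphan nuclear receptor induced by contraction, was the lower one, at 215 units in genistein denervated against 662 in genistein sham muscle, and at 170 against 561 on the control diet. Klf5, a Krüppel-like factor, was higher by log2 ratios of 1.30 and 1.46 on genistein and control diets (0.85 and 1.15 on its lowest probe sets), and Id2, an inhibitor of helix-loop-helix factors, by 1.06 and 1.21. Its relative Id3 was at 1.21 and 0.89, and Per1, a clock gene also induced as an early gene, at 0.88 and at least 1.57. Among early response effectors, 4 of 25 on genistein and 5 of 24 on the control diet were at least 2-fold higher, and 0 and 4 lower. The largest ratios were those of the growth arrest genes Gadd45a (3.52 and 3.25) and Cdkn1a (3.34 and 3.26). Errfi1, a feedback inhibitor of the EGF receptor, was at 1.84 and 2.05, and Sgk1, a serum- and glucocorticoid-induced kinase, at 1.45 and 1.41. Gadd45b (-0.96 and -1.47) and the matricellular factor Ccn2 (-0.78 and -1.59) were lower. The 2 probe sets of Cdkn1a differed, with 4.65 and 4.69 on the other one.

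Of 8 measured MAP kinase phosphatases related to Dusp1, 1 on genistein and 0 on the control diet had a denervation ratio above 0, against 51.7% and 49.8% of all genes. Their medians were -0.45 and -0.81, and 2 and 3 of them were at least 2-fold lower, against 6.57% and 7.63% of all genes. Dusp2 and Dusp5 were under the floor on the control denervated array, so their ratios on the control diet are bounds, as are those between the denervated pools. Dusp26 was at 593 units in genistein denervated against 1333 in genistein sham muscle and at 603 against 1264 on the control diet. Dusp14 was at 175 against 302 units on genistein and 98.4 against 303 on the control diet. Dusp8 was under the floor on both denervated arrays, so its log2 ratios of -1.90 and -1.18 are bounds. Between the denervated pools, 6 of 7 phosphatases read higher on genistein than on the control diet (median 0.46), against 50% of all genes. None reached 2-fold, against 1.15% of all genes. Dusp10, at 97.2 units on genistein against 85.6 on the control diet, lay near the floor.

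Upstream, 2 of 23 MAP kinase, SRF and CREB genes on genistein and 0 of 22 on the control diet were at least 2-fold higher in denervated muscle, and 3 were lower on each. The 3 lower ones were the same on both diets. Map2k6, a kinase that activates p38, was at 248.6 units in genistein denervated against 1174 in genistein sham muscle, and at 200.2 against 963 on the control diet. Map2k3, its relative, had log2 ratios of -1.16 and -1.09 on genistein and control diets, and Mapkapk2, a kinase downstream of p38, -1.63 and -1.48. Other genes of the p38 branch did not follow: the p38 kinases Mapk14 (-0.36 and -0.30) and Mapk12 (-0.47 and -0.18) stayed within 2-fold, and Mapkapk3 was at 0.27 and 0.66. They were named after their values were seen. Map3k1 (1.49 and 0.98), a kinase upstream of JNK, and the SRF partner Elk4 (1.22 and 0.75) were higher, and the 3 probe sets of Elk4 spanned 0.40 to 1.22 on genistein.

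**Figure D4:**
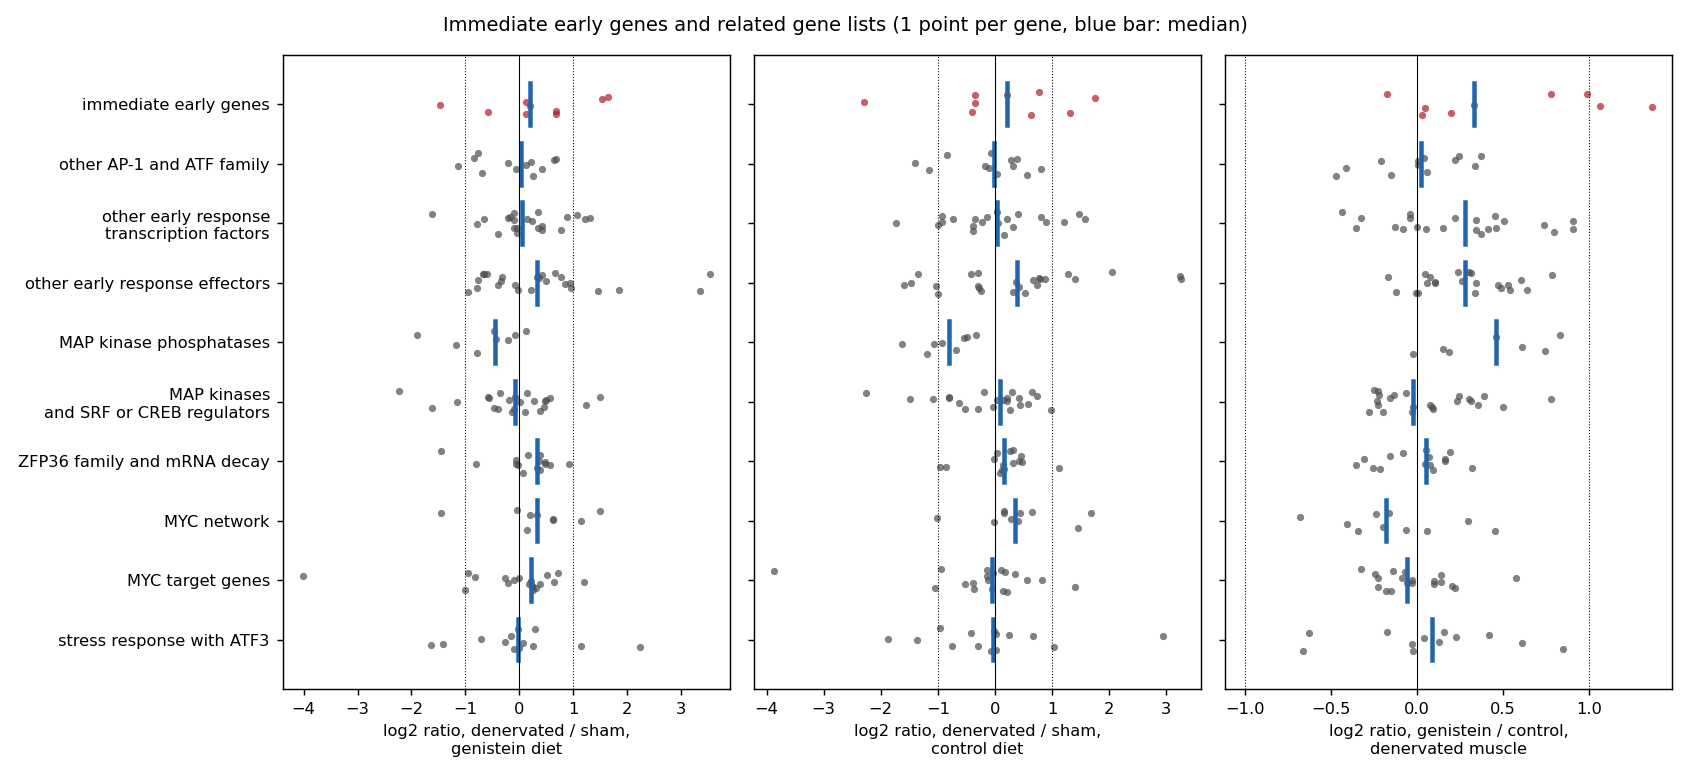
Log2 ratios of the measured genes of the immediate early group (red) and of 9 related lists (grey), with 1 point per gene, for denervated over sham muscle on the genistein diet (left) and the control diet (middle) and for genistein over control diet in denervated muscle (right). Blue bars are list medians and dotted lines mark 2-fold. The MAP kinase phosphatases lie to the left of 0 in the left panel, except 1 of 8, and in the middle panel. They lie mostly to the right of 0 in the right panel.

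In the MYC network 2 genes were at least 2-fold higher and 1 lower on each diet, of 9 measured on genistein and 10 on the control diet. Max, the obligate partner of Myc, was at 3376 units in genistein denervated against 1525 in genistein sham muscle, and at 3873 against 1409 on the control diet. Mxi1, which competes with Myc for Max, was at 4853 against 1717 units on genistein and 6152 against 1916 on the control diet. The other probe set of Max gave a log2 ratio of 0.80 on the control diet and that of Mxi1 0.67 on genistein, both under 2-fold. Mlxipl, a glucose-sensing relative, was lower (-1.45 and -1.02). Of 19 genes known as Myc targets, 1 was at least 2-fold higher and 2 lower on each diet, with medians of 0.21 on genistein and -0.05 on the control diet. The transferrin receptor Tfrc (-4.01 and -3.87) and ornithine decarboxylase Odc1 (-0.96 and -1.04) were lower, Cdc25a was at 0.64 and 1.41, and Pa2g4 at 1.20 and 0.83, with its other probe set at 0.05 and 0.33. Eif4e, the cap-binding translation factor, was at 2431 units in genistein denervated against 4871 in genistein sham muscle and at 2539 against 4865 on the control diet, while another of its probe sets gave a log2 ratio of -0.03 on genistein.

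Among the stress genes that are often read with Atf3, Trib3 was at 2.23 and 2.94 on genistein and control diets (1.05 and 1.48 on its lowest probe set) and Herpud1 at 1.14 and 1.04. Ddit3, the stress factor CHOP, was at -1.41 and -1.37 and Vldlr at -1.65 and -1.87. The list held 2 genes at least 2-fold higher and 2 lower on each diet, of 13 measured on genistein and 14 on the control diet. Of the mRNA decay genes related to Zfp36, 0 of 15 on genistein and 1 of 15 on the control diet were at least 2-fold higher. That one was the exonuclease Xrn1 (0.92 and 1.12, and 0.27 and 0.15 on its lowest probe set), and the lower one on genistein was Tob2 (-1.46 and -0.96). Between the diets 1 gene of all 9 lists passed 2-fold in sham muscle and 0 in denervated muscle, against 0.61% and 1.15% of all genes. That gene was Per1, from the 22 measured genes of the early response transcription factor list. It was at 239 units in genistein sham against 64.9 in control sham muscle, a log2 ratio of at least 1.60.

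Genes elsewhere on the array whose 4 readings were shaped most like those of a member were found by the distance between log2 signals centred on each gene's mean, over the 9361 other genes above the floor on all 4 arrays. The nearest to Dusp1 were Cavin2 (distance 0.0919 log2 units), Lgals3 (0.208) and Cmbl (0.21). Cavin2 was at 680 units in genistein denervated against 1922 in genistein sham muscle, and at 371.5 against 1690.5 on the control diet. For Myc they were Sesn3 (0.0232), Stbd1 (0.0662) and Tp63 (0.0779), and for Junb Psmb9 (0.130), Filip1 (0.148) and Ypel5 (0.176). For Egr1 they were Fam171a1 (0.104), Tc2n (0.110) and Clec4a (0.111). Fos had no near match, with S100a8 (0.325), Ccl21 (0.331) and Ccn5 (0.392) the nearest. With 4 arrays a likeness of this kind is a description of these readings.

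**Figure D5:**
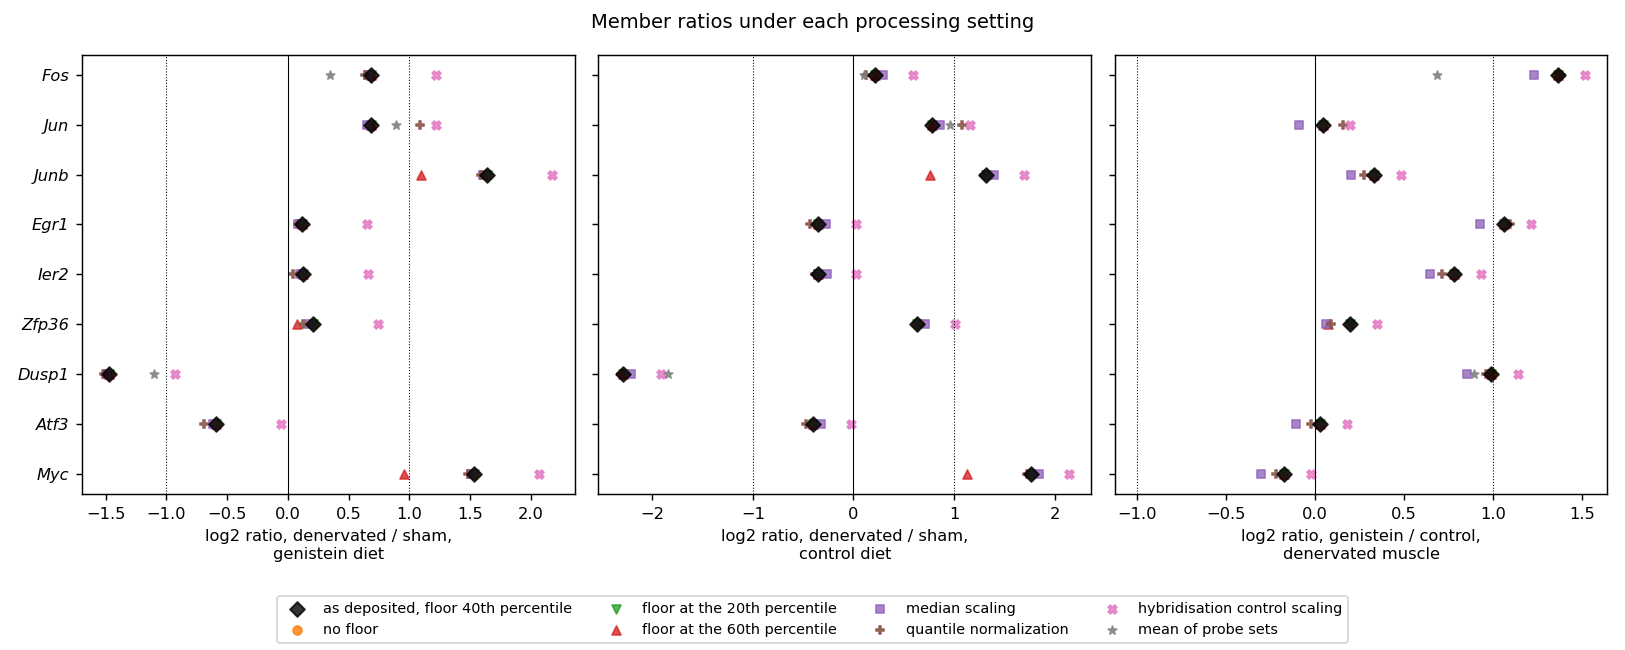
Log2 ratio of each measured member under 8 processing settings (black diamonds: signals as deposited with the floor at the 40th percentile), for denervated over sham muscle on the genistein diet (left) and the control diet (middle) and for genistein over control diet in denervated muscle (right); dotted lines mark 2-fold. Junb and Myc keep positive and Dusp1 negative denervation ratios in each setting, while Egr1 and Ier2 on the control diet move to just above 0 under hybridisation control scaling.

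Across the 8 settings the denervation ratio of Dusp1 ran between -1.51 and -0.93 on genistein and between -2.31 and -1.85 on the control diet. That of Junb ran from 1.09 to 2.17 on genistein and from 0.76 to 1.70 on the control diet, and that of Myc from 0.95 to 2.07 and from 1.13 to 2.14. The diet ratio of Fos in denervated muscle ran from 0.68, with its dim probe set averaged in, to 1.52, that of Egr1 from 0.93 to 1.21 and that of Dusp1 from 0.85 to 1.14.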

How the data were processed

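Soleus RNA of 8 rats was combined for each of 4 groups, and each biotin-labelled pool was read on 1 Affymetrix array. The values the authors deposited are linear signal intensity values. GCOS 1.1 is listed in the submitters' processing notes, and its scaling target was not stated. The mean intensity after removal of 2% of probe sets at each end was 500.2 units on each array, so no further scaling was done in the main results.

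Of 31099 probe sets, 57 controls were set aside. GEO's platform annotation gave 20826 probe sets 1 symbol, 436 several and 9780 none, and 20758 gene IDs matched GRCr8, with 0 symbols updated. No probe set with several symbols listed a member. The brightest probe set (mean log2 signal) stood for each gene. Signals were floored at 78.9 units (40th percentile), ratios against a floored signal are bounds, and calls were made at 2-fold. With 1 array per group there is no test. The number of arrays limits the precision.

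The members and lists were chosen with earlier results of these data known. All 10 members were named. From each related list the genes past 2-fold for denervation (at most 6) or diet were named. Alternatives were other floors, median, quantile and hybridisation control scaling, the mean of probe sets, and a 1.5-fold threshold. The ratio code was tested on simulated data. Tools were Python 3.11.15, pandas 2.3.3 and numpy 2.4.6.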

Additional observations from a re-analysis of the deposited data

Results flagged for a closer look

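Egr1, Ier2 and Myc had opposite directions in the 2 groups of a contrast, each with 1 array per group, so the difference was not tested for any of them. Egr1 was above its sham level on genistein and below it on the control diet, a difference of 0.47 log2 units between the denervation ratios. Ier2 did the same, with a difference of 0.48. Myc was slightly higher on genistein in sham muscle and lower in denervated muscle, with a change of the diet ratio of -0.23, inside the probe set SD of 0.34. Egr1 and Ier2 on the control diet turned to 0.02 and 0.03 under hybridisation control scaling, which removes the opposite directions.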

How the results depend on the processing

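With 1 array per group nothing could be left out. No paired analysis was possible because each group is 1 pool on 1 array, which leaves no pair of replicates. The members' counts and medians under the alternatives were set beside the reported values. A count within a factor of 1.5, or a median within the probe set SD, was taken as close. A count of 4 beside 3 was thus close even where its genes changed, as on genistein under hybridisation control scaling. The 1.5-fold threshold cannot change a median, and those medians are among the close ones. By this rule 67 were close, 12 moved and 1 turned negative, as follows. For denervation on the control diet, the count past the threshold was 5 under hybridisation control scaling and 5 at 1.5-fold, against 3, and the median was -0.068 with the floor at the 60th percentile, where Zfp36 is no longer measured, and 0.59 under hybridisation control scaling. On genistein the count was 6 at 1.5-fold, against 3, and the median was 0.70 under hybridisation control scaling. For diet in sham muscle the count was 3 at 1.5-fold and 1 (Fosb) with no floor and with the floor at the 20th percentile, against 0. In denervated muscle it was 4 at 1.5-fold, and 1 under median scaling (Fos) and with the mean of probe sets (Egr1), against 2. For the difference between diets it was 1 (Dusp1) at 1.5-fold, against 0.

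Hybridisation control scaling moved the median of all genes to 0.53 for denervation on genistein, 0.36 on the control diet and 0.15 for diet in denervated muscle, and median scaling moved the last to -0.13. Relative to those shifts, the denervation ratios of Junb and Myc stayed above the median of all genes and those of Dusp1 below it. Of all genes past 2-fold, the higher ones made up 43.0% on genistein and 39.8% on the control diet, but 90.0% and 77.9% under hybridisation control scaling. For diet in denervated muscle they made up 89.2%, but 69.3% under median scaling and 79.1% under quantile normalization, and for the difference between diets 72.7%, but 52.9%, 61.5% and 88.2% under median, quantile and hybridisation control scaling. The share of all genes past 2-fold between diets was 0.61% in sham and 1.15% in denervated muscle, but 12.3% and 12.0% with no floor and 0.0988% and 0.408% with the floor at the 60th percentile. With the floor at the 20th percentile it was 5.28% and 4.48%, and in denervated muscle 2.42% under hybridisation control scaling. At 1.5-fold it was 5.17% and 8.02%. For denervation on genistein it was 11.5%, and 20.8% with no floor or 21.1% under hybridisation control scaling, and on the control diet 12.7%, and 23.1% with no floor; at 1.5-fold these were 29.9% and 31.7%. For the difference it was 2.59%, and 18.3% with no floor, 9.56% and 0.633% with the floor at the 20th and 60th percentile, and 12.9% at 1.5-fold. Signal near the floor limits Junb and Myc in sham and Zfp36 in control sham muscle, at 129 to 149 units.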

Other observations

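Fosb was under the floor on all 4 arrays and has no place in the comparisons, yet its readings parted by diet: 74.1 units in genistein denervated and 74.5 in genistein sham muscle, against 8.9 in control denervated and 6.3 in control sham muscle. Taken as deposited these are 8.33-fold in denervated and 11.8-fold in sham muscle. Signals this low are unstable, since with no floor 12.0% and 12.3% of all genes passed 2-fold between the diets in denervated and sham muscle. The dim probe set of Fos, also under the floor, parted by operation instead, with 30.8 units in genistein denervated against 6.9 in genistein sham muscle and 50.4 in control denervated against 12.3 in control sham muscle. Its bright probe set parted by diet.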
